A study of Rattus norvegicus with 16 samples.

Results

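Kidney cortex of wild-type rats given ferric nitrilotriacetate (Fe-NTA) for 3 weeks was compared with normal wild-type cortex, 3 arrays against 2, which are 5 of the 16 arrays of the series. The arrays were taken by their titles, with no use of measured values, and 16024 genes had a probe bright enough to be tested. The rats were male Jcl:SD wild-type animals, a Sprague-Dawley stock from CLEA Japan. Fe-NTA was injected into the peritoneal cavity from 4 weeks of age. The first week held 2 injections of 5 mg iron per kg and 3 of 7 mg iron per kg, and the next 2 weeks held 5 injections a week of 10 mg iron per kg. Fresh cortex was excised 48 h after the last injection. The labels call the control arrays normal cortex and give neither an age nor a vehicle for them, so the age of the treated rats and the iron cannot be told apart. A group that had only the first week of injections (3 arrays) and the same 3 groups in BRCA1+/- rats, which are heterozygous for Brca1 (8 arrays), were used for comparison and for the estimate of the spread. In all, 17 wild-type and 18 BRCA1+/- rats entered the injury protocol. Whether each array stands for its own rat is not stated, and p-values here reflect array-to-array spread, some of which may be technical.

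Fe-NTA is a soluble iron chelate that is filtered in the glomerulus and generates oxygen radicals at the proximal tubule, the segment that reclaims most of the filtrate. Repeated injection is a long-used rat model of tubular injury, regeneration and, later, renal cell carcinoma. Injured proximal tubule cells are known to lose transporters and oxidative enzymes and to make secreted and surface proteins such as osteopontin, KIM-1 and NGAL, while surviving cells divide to refill the tubule.

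Total RNA was labelled with Cy3 and hybridised to 1-colour rat arrays. A level is given throughout as log2 signal after subtraction of the log2 75th percentile of the same array, so that 0 is the brightness of the 75th percentile probe and negative values are dimmer. Levels are compared between arrays for 1 probe and not between probes. Of the probes, 32.8% and 36.3% were well above background on the control arrays and 40.5%, 42.3% and 60.5% on the 3-week arrays, and the number of arrays limits the precision. To be tested, a gene needed a probe that was well above background throughout at least 1 of the 6 groups, and the brightest such probe was used. A gene dark in the controls therefore entered only through another group, and 2665 of the genes tested were not well above background on any control array. Genes of that kind could hardly be called lower, so their number is given beside each list in which no member fell. For a called gene of that kind its size is marked "at least" and sets the bright group's mean against the detection limit of the dim group. It is a lower bound only for the probe used under the main processing. Other probes or alternative runs gave smaller sizes for some of these genes. The control arrays correlated at r = 0.974 across probes and the 3-week arrays at 0.970 to 0.981. Tubule markers were bright on all 5 arrays: Slc34a1, the proximal sodium-phosphate transporter, read 6.93 to 8.72 and Umod, the uromodulin of the thick limb, read 8.36 to 9.64. A bulk sample cannot separate fewer cells of a type from less RNA per cell.

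After 3 weeks, 1405 genes were higher (8.77% of those tested) and 886 lower (5.53%), 14.3% in either direction, by limma with Benjamini-Hochberg adjusted p under 0.05. The median log2 difference over all genes was -0.02, and the 5 arrays did not overlap between groups for 57.1% of genes. The split between higher and lower depended on the scaling: scaling to the array median gave 716 higher and 980 lower with an all-gene median of -0.23, and scaling to probes bright on all arrays gave 1872 and 720 with an all-gene median of 0.07. Scalings that shift a whole array by a constant cannot move a list median relative to the all-gene median. Under quantile normalization, with and without normexp background correction, 52 of the 55 gene lists examined kept their side of the all-gene median, and the exceptions were the lists for lysosomes, for mesothelium and urothelium, and for neutrophils and mast cells. Without control replicate 2 the counts were 540 higher and 235 lower, without control replicate 1 they were 827 and 293, and without 3-week replicate 2 they were 891 and 462. Without 3-week replicate 1 or replicate 3, 552 and 550 genes were called lower.

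**Figure D1:**
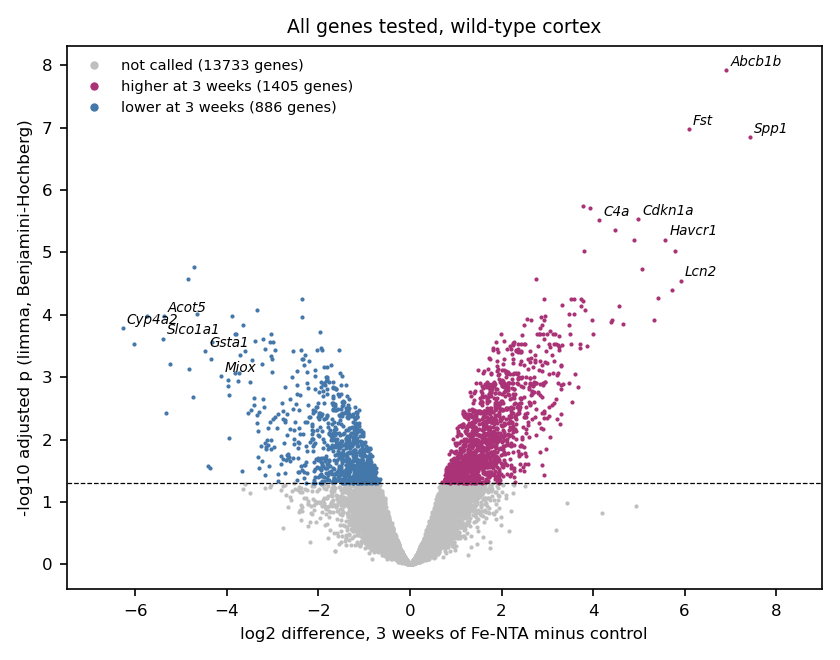
Each point is 1 of 16024 genes; the x axis is the log2 difference between 3 weeks of Fe-NTA and control in wild-type cortex and the y axis is −log10 of the limma adjusted p, with the dashed line at 0.05. Spp1 stands farthest to the right at 7.42 and Cyp4a2 farthest to the left among the named genes at -6.28.

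Markers of tubular injury were among the groups with the largest rises. Of 29 tested members (32 on the list), 22 rose and 1 fell, with a median log2 difference of 2.21 against -0.02 for all genes. Spp1, which encodes the secreted phosphoprotein osteopontin, read 1.22 and 1.30 in the controls and 9.25, 8.85 and 7.95 after 3 weeks. The groups lay far apart, with a log2 difference of 7.42 (SE 0.43, adjusted p = 1.4e-07). Havcr1, the gene of the phosphatidylserine receptor KIM-1, read -3.07 and -3.52 in the controls, where it was not well above background, and 2.91, 1.92 and 2.00 after 3 weeks. It was at least 18.9-fold higher (adjusted p = 6.2e-06). Lcn2, which encodes the siderophore-binding lipocalin NGAL, read -2.47 and -1.77 in the controls and 4.43, 3.43 and 3.53 after 3 weeks, at least 46.5-fold higher (adjusted p = 2.8e-05). The 3 treated arrays were alike for both genes, and replicate 1 was the highest for each.

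Other members of that list that rose included surface, cytoskeletal and secreted proteins. Vim, the intermediate filament of mesenchymal and dedifferentiated cells, read -0.24 and -0.15 in the controls and 3.45, 2.88 and 2.59 after 3 weeks, a log2 difference of 3.17 (SE 0.39, adjusted p = 0.0002). Clu, the extracellular chaperone clusterin, rose by 3.14 on the log2 scale, Lgals3, a galactoside-binding lectin, by 3.52, and Anxa2, a membrane-binding annexin, by 2.67. Krt18, a simple-epithelium keratin, rose by 1.99. Cd44, the hyaluronan receptor, was at least 11.9-fold higher, Anxa5 at least 11.7-fold and the TWEAK receptor Tnfrsf12a at least 8.38-fold. A second Cd44 probe, dimmer and above background on 2 treated arrays, gave a smaller log2 difference of 2.14 against 4.42 for the brightest. The fibrinogen chain Fgb, listed with acute phase proteins, read -3.13 and -1.42 against 2.23, 2.36 and 2.29 and was at least 14.5-fold higher. That acute phase list had 11 tested members of 18 on the array, and 9 rose and none fell (6 of the 11 dark in the controls), with a median of 2.21. Without control replicate 2, 3 rose. Tff3, a trefoil peptide of mucosal repair, was the injury-list member that fell, from 6.22 and 4.08 to 1.98, 2.96 and 1.88 (log2 difference -2.88, adjusted p = 0.035). This call did not survive leaving out control replicate 1 or either of 3-week replicates 1 and 3 (adjusted p = 0.089 to 0.32).

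**Figure D2:**
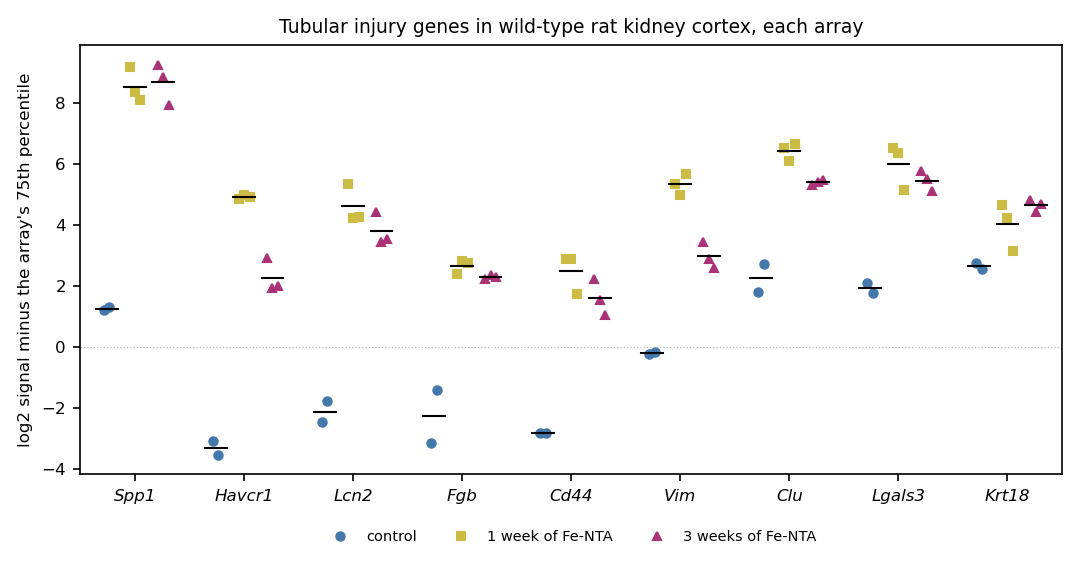
Levels of 9 injury genes on every wild-type array, as log2 signal relative to the array's 75th percentile; circles are controls (2 arrays), squares 1 week (3 arrays) and triangles 3 weeks of Fe-NTA (3 arrays), and bars are group means. Spp1 sits between 7.95 and 9.25 at 3 weeks and between 1.22 and 1.30 in controls, and Havcr1 is lower at 3 weeks than at 1 week.

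Among the 15 genes with the largest rises were several outside classical injury panels. Abcb1b, a P-glycoprotein drug efflux pump, read -3.41 and -3.79 in the controls and 3.17, 3.38 and 3.38 after 3 weeks. The 3 treated arrays were close together, and the rise was at least 38.6-fold (adjusted p = 1.2e-08). Fst, the activin-binding protein follistatin, read -2.80 and -3.20 against 3.11, 3.09 and 3.06, at least 33.1-fold higher (adjusted p = 1.1e-07). Each of these genes has a second, dimmer probe, which gave log2 differences of 2.41 for Abcb1b and 2.01 for Fst against 6.91 and 6.09 for the brightest. Both probes of each gene thus rose, by different amounts.

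Tenm4, a teneurin adhesion protein, was at least 31.1-fold higher and Adra1d, an alpha-1 adrenergic receptor, at least 20.5-fold. The cytokine Il24 was at least 18.9-fold higher, the serpin Serpina10 at least 19.9-fold and the microglial and macrophage receptor Trem2 at least 24-fold. The carboxylesterase Ces1a was at least 16.4-fold higher, Gpr15lg, a ligand of a lymphocyte homing receptor, at least 15.6-fold, and the adenosine receptor Adora1 at least 12.8-fold. None of these genes was well above background on a control array, and all were so on the 3 treated arrays. Their adjusted p-values lay between 4.4e-06 (Adora1) and 0.00014 (Trem2).

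The cell cycle inhibitor p21 and other p53 targets were above control at 3 weeks, while mitotic genes were far below their levels at 1 week. Cdkn1a, the p21 inhibitor of cyclin-dependent kinases and a p53 target, read -2.06 and -3.09 in the controls, 1.70, 2.32 and 1.34 at 1 week and 1.92, 2.42 and 2.90 at 3 weeks. It was at least 20.7-fold above control at 3 weeks (adjusted p = 2.9e-06), and its difference from 1 week was 0.62 (adjusted p = 0.27). A second Cdkn1a probe gave a log2 difference of 1.91 against 4.99. Of 24 tested p53 targets, 8 rose and none fell (7 dark in the controls), with a median of 0.52; 3 rose without control replicate 2, 4 without 3-week replicate 1 and 5 without 3-week replicate 3. Plk2, a polo-like kinase, was at least 6.82-fold higher and Pmaip1, the proapoptotic NOXA, at least 2.64-fold. Myc, a growth transcription factor, was at least 3.63-fold higher and Atf3, a stress-induced one, at least 5.05-fold. Cdkn2a, which encodes p16 and p19ARF and is known for its loss in Fe-NTA-induced rat renal carcinomas, read -0.71 and -0.83 against -0.33, -0.58 and -1.13, a log2 difference of 0.09 (adjusted p = 0.91).

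Mki67, the proliferation antigen Ki-67, read -0.95 and -1.08 in the controls, 1.74, 2.69 and 1.48 at 1 week and -0.87, -0.33 and -0.36 at 3 weeks. The 3-week arrays differed from control by 0.49 (SE 0.43, adjusted p = 0.49; up to 1.45 by its 3 dimmer probes) and from 1 week by -2.49 (adjusted p = 0.002). Of 35 tested cell cycle genes, 27 fell from 1 week to 3 weeks and none rose, against 2.78% of all genes falling in that comparison, with a median of -2.18. The 17 members dark in the controls could enter the test by being bright at 1 week, so the filter itself favours falls in this comparison. Against control, 7 of the 35 rose and none fell (17 dark in the controls), with a median of 0.68. That count of 7 dropped to 1 and 2 when control replicate 1 or 2 was left out, and to 4, 3 and 4 for 3-week replicates 1, 2 and 3. Cyclin A2, encoded by Ccna2, differed from 1 week by -3.60 and the mitotic kinase Plk1 by -3.0, and the replication clamp Pcna differed by -1.57. Cdk1, the mitotic cyclin-dependent kinase, fell from 1.98, 2.18 and 2.33 at 1 week to -0.74, -0.38 and -0.67 at 3 weeks (log2 difference -2.76, adjusted p = 0.001). Cdk1 was still at least 2.56-fold above control, which was no longer called without either control array (adjusted p = 0.069) or with normexp and quantile normalization (adjusted p = 0.37).

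Of 20 tested genes of homologous recombination and the DNA damage response, none rose and 1 fell against control, a count of 0 when any 1 of the 5 arrays was left out, and 4 fell from 1 week. Brca1, a homologous recombination gene, was not well above background on the control arrays (-3.31 and -2.70) and was so on the 3 treated ones (-1.35, -0.83 and -1.87). The difference did not pass the test (adjusted p = 0.15). The growth factor receptor Met read 3.70 and 3.67 against 4.87, 4.69 and 4.16 (log2 difference 0.89, adjusted p = 0.16), and its other probe went the opposite way (-0.46).

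Lists of proximal tubule enzymes and transporters had medians below control, with a part of their members called lower, and many members were above their levels at 1 week. Of 29 tested proximal metabolic enzymes, 12 fell and none rose, with a median of -1.33 (7 and 6 fell without control replicates 1 and 2). Miox, the myo-inositol oxygenase of the renal cortex, read 5.62 and 5.58 in the controls and 2.02, 1.09 and 1.27 after 3 weeks (log2 difference -4.14, SE 0.65, adjusted p = 0.00095). Kmo, which hydroxylates kynurenine, differed by -3.03, Dpys, a pyrimidine-degrading enzyme, by -2.47, and Dmgdh, a mitochondrial choline-pathway dehydrogenase, by -2.07. Glyat, which conjugates glycine, read 6.80 and 7.00 in the controls, 3.54, 3.03 and 2.62 at 1 week and 5.16, 5.04 and 4.64 at 3 weeks. Its level at 3 weeks thus lay between the other groups, below control by a log2 difference of -1.96 (adjusted p = 0.0037) and above 1 week by 1.89 (adjusted p = 0.0041). Hao2, a peroxisomal hydroxyacid oxidase, had the same order, at -1.82 from control and 1.68 from 1 week.

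In the list for the S1 and S2 segments, 9 of 25 tested genes fell and 1 rose, with a median of -1.26. The count that fell was 2 without control replicate 1, 1 without control replicate 2 and 4 without 3-week replicate 2, and the 1 rise was lost without any of the 5 arrays. Slc34a1 read 8.61 and 8.72 in the controls, 4.82, 4.23 and 2.79 at 1 week and 7.84, 6.93 and 7.44 at 3 weeks. The 3-week arrays were all below the controls, but the difference of -1.26 did not pass the test (SE 0.56, adjusted p = 0.15), whereas the rise of 3.46 over 1 week did (adjusted p = 0.002). Slc5a2, the glucose cotransporter SGLT2, differed from control by -0.38 (adjusted p = 0.76) and from 1 week by 2.84 (adjusted p = 0.011, or 0.051 without 3-week replicate 1). Slc34a3, another phosphate transporter, rose by 3.66 over 1 week, Folr1, the folate receptor, by 2.35, and Amn, the amnionless subunit of the cubilin receptor, by 2.16; none of these passed the test against control. Dab2, the endocytic adaptor of megalin, remained lower than control, at 5.46 and 6.01 against 4.18, 4.13 and 4.05 (log2 difference -1.61, adjusted p = 0.0016). Lrp2, megalin itself, read 6.16 and 6.48 against 5.40, 5.16 and 4.96 (-1.15, adjusted p = 0.067). Of 17 tested genes in a list of brush border peptidases and endocytosis, 3 rose and 2 fell against control, with a median of -0.21. With 1 array left out, 1 rose and 0 to 2 fell.

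Slc22a6, the organic anion transporter OAT1, read 8.35 and 8.84 in the controls, 3.71, 3.58 and 3.51 at 1 week and 6.72, 6.11 and 6.59 at 3 weeks. It differed from control by -2.12 (adjusted p = 0.015), which was no longer called without either control array and without 3-week replicate 2 (adjusted p = 0.052 to 0.14), and from 1 week by 2.88 (adjusted p = 0.0026). For the S3 segment, 6 of 18 tested genes fell and none rose, with a median of -0.57, and leaving out any 1 array left 1 to 3 of them. Over 1 week, 12 of the 25 S1 and S2 genes and 20 of the 29 metabolic enzymes rose and none fell, against 5.55% of all genes rising in that comparison (8 to 12 and 14 to 22 with 1 array left out). Pck1, the gluconeogenic PEPCK, rose by 3.91 over 1 week and differed from control by -0.46 (adjusted p = 0.69), and the ketohexokinase Khk rose by 2.76.

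The 15 largest falls included enzymes and transporters of lipid and organic anion handling beside genes of other kinds. Cyp4a2, a fatty acid omega-hydroxylase regulated by PPAR alpha, read 8.25 and 8.09 in the controls and 3.30, 1.23 and 1.15 after 3 weeks (log2 difference -6.28, SE 0.75, adjusted p = 0.00016). The 1-week arrays read 3.08, 2.61 and 1.08, and the difference between the treated groups did not pass the test (-0.36, adjusted p = 0.78). Slco1a1, an organic anion uptake transporter, was at least 15.2-fold lower, from 2.15 and -0.20 in the controls to below background on the 3 treated arrays. The acyl-CoA thioesterase Acot5 was at least 14.1-fold lower and the collectin Mbl1 at least 4.42-fold lower. Gba3, a cytosolic beta-glucosidase, differed by -4.32, the aldo-keto reductase Akr1c12l1 by -3.98, and Dhrs7l1, whose symbol marks a short-chain dehydrogenase, by -4.74 with 1 of 3 treated arrays above background. Hrg l1 differed by -4.66, also with 1 of 3 treated arrays above background. A dimmer probe for Gba3 gave -1.57. Gas2, a microfilament protein, differed by -3.77 with 2 of 3 treated arrays above background, and Mylk3, a myosin light chain kinase, by -3.73. The transmembrane protein Tmem252 was at least 7.25-fold lower. Spp2, a secreted phosphoprotein, differed by -3.96 and the toll-like receptor Tlr12 by -3.68 (-1.20 by its other probe). The Spp2 call was lost without either control array (adjusted p = 0.052 and 0.08), and the Tlr12 call when any 1 of the 5 arrays was left out (0.063 to 0.16).

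Of 32 tested genes of fatty acid oxidation and its regulator PPAR alpha, 10 fell and none rose, with a median of -0.76 (4 without control replicate 2 and 6 without 3-week replicate 2). Cyp4a3 differed from control by -3.21 and Etfa, an electron transfer flavoprotein subunit, by -1.34. Ppara itself read 1.75 and 2.65 in the controls, -2.30, -2.81 and -2.11 at 1 week and 0.31, 0.72 and 0.60 at 3 weeks. Its difference from 1 week was 2.95 (adjusted p = 0.002, or 0.063 with normexp and quantile normalization), and that from control was -1.66 (adjusted p = 0.041). The control call for Ppara was lost when any 1 of the 5 arrays was left out (adjusted p = 0.062 to 0.31). Of 32 tested genes of oxidative phosphorylation, 6 fell and none rose, with a median of -0.41, but 1 at most was called when any 1 of the 5 arrays was left out.

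The distal segments differed by list. Of 14 tested markers of collecting duct principal cells, 6 rose and none fell (3 dark in the controls), with a median of 1.05, of 15 tested intercalated cell genes 2 rose and 2 fell, with a median of 0.05, and of 23 genes of the thick limb and distal tubule 4 rose and 1 fell, with a median of 0.47. The collecting duct count was 3 without control replicate 1, and 2 without control replicate 2 or 3-week replicate 3, and the count of 4 was 0 without any of these 3 arrays or 3-week replicate 2, with 1 lower in each case, and 0 with 2 lower under array-median scaling. Aqp2, the vasopressin-regulated water channel, read 6.42 and 6.29 in the controls, 7.41, 6.87 and 7.06 at 1 week and 8.07, 8.28 and 8.16 at 3 weeks. The 3 groups did not overlap, and the 3-week level exceeded control by 1.82 (SE 0.25, adjusted p = 0.00037) and 1 week by 1.06 (adjusted p = 0.0092), which did not pass when arrays were scaled to their median. Cldn4, a chloride-selective claudin of the collecting duct, rose by 3.19, from -1.87 and -0.35 (1 control array above background) to 2.14, 1.83 and 2.25 (1.75 by its other probe). Cldn10, a claudin of the thick limb and proximal tubule, differed by -1.61.

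Umod read 9.09 and 8.36 in the controls, 7.16, 7.65 and 5.64 at 1 week and 8.61, 9.64 and 8.66 at 3 weeks. Its difference from control was 0.25 (adjusted p = 0.83). Slc12a3, the thiazide-sensitive cotransporter of the distal convoluted tubule, read 3.91 and 3.93 against 4.58, 4.98 and 5.23 (log2 difference 1.01, adjusted p = 0.023; 0.48 by its other probe). It was no longer called without either control array and without 3-week replicate 2 or 3 (adjusted p = 0.069 to 0.13). The Slc12a3 call was also lost with the mean over its probes (0.74, limma adjusted p = 0.059) and with array-median scaling (0.80, limma adjusted p = 0.12). Kl, the hormone coreceptor klotho of the distal tubule, differed from control by -0.42 (adjusted p = 0.52). Car15, listed with intercalated cell genes, a membrane-bound carbonic anhydrase, read 3.47 and 3.07 in the controls, 4.10, 3.45 and 3.19 at 1 week and 5.44, 6.95 and 6.83 at 3 weeks. The 1-week arrays overlapped the controls, and the 3-week arrays were above both, by 3.13 over control (SE 0.48, adjusted p = 0.00085) and by 2.83 over 1 week (adjusted p = 0.002). Slc26a4, the chloride-bicarbonate exchanger pendrin, read 0.24 and 0.07 in the controls and -1.48, -1.98 and -1.39 at 3 weeks (-1.77, adjusted p = 0.0081), which was no longer called without either control array (adjusted p = 0.054 and 0.065).

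**Figure D3:**
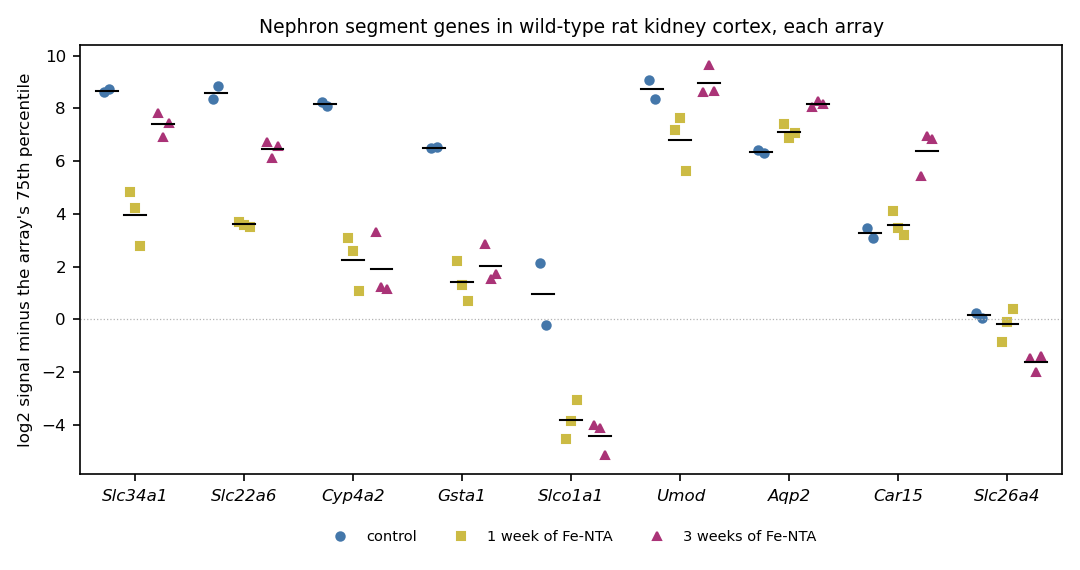
Levels of 9 genes of nephron segments on every wild-type array, as log2 signal relative to the array's 75th percentile; circles are controls, squares 1 week and triangles 3 weeks of Fe-NTA, and bars are group means. Slc34a1 at 3 weeks (6.93 to 7.84) lies above 1 week and below control (8.61 to 8.72), whereas Cyp4a2 stays low at 1.15 to 3.30, and Aqp2 and Car15 are highest at 3 weeks.

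Extracellular matrix genes rose as a group. Of 29 tested matrix and crosslinking genes 20 rose and none fell (6 dark in the controls), with a median of 1.72, and of 13 tested matrix proteases and their inhibitors 9 rose and none fell (5 dark), with a median of 1.81. Without control replicates 1 and 2 the matrix count was 12 and 7, with array-median scaling it was 11, and the protease count was 4 without control replicate 2. Fn1, which encodes fibronectin, read -1.05 and -1.33 in the controls and 2.06, 1.69 and 1.5 after 3 weeks (log2 difference 2.94, SE 0.47, adjusted p = 0.0012). Col18a1 and Col4a2, collagens of basement membranes, rose by 1.89 and 2.09, and the matricellular protein Sparc by 1.78. Col1a1, the main fibrillar collagen of scar, read 2.22 and 1.70 against 5.46, 3.75 and 4.25 (2.52, adjusted p = 0.0067), which did not pass once control replicate 2 was left out (adjusted p = 0.085). The crosslinking enzyme Loxl2 was at least 2.70-fold higher and the gelatinase Mmp2 at least 9.83-fold. Timp1, an inhibitor of matrix proteases, rose by 2.23, and Adamts1, a secreted protease, by 2.01 (0.57 by its other probe).

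The collagens of the mature glomerular basement membrane, which were listed with podocyte genes, went the other way. Col4a3 read 2.47 and 2.48 in the controls and -0.63, -0.03 and 0.45 after 3 weeks (log2 difference -2.54, SE 0.35, adjusted p = 0.00039), and Col4a4 differed by -2.57 (adjusted p = 0.00097). Nphs1, which encodes the podocyte slit-diaphragm protein nephrin, differed by -0.71 and did not pass the test (adjusted p = 0.25). The whole list of podocyte and parietal cell genes had 3 of 18 tested members up and 2 down, with a median of 0.11. The count of 3 up was 0 without control replicate 2 or with array-median scaling. Of 20 tested genes of TGF-beta, BMP and activin signalling, to which follistatin belongs, 9 rose and none fell (9 dark in the controls), with a median of 1.47. Tgfb2 rose by 3.03, with 3 probes between 2.04 and 4.65, and Bmp2 was at least 3.17-fold higher, with log2 differences of 2.82 and 1.63 by its probes. Ltbp2, a latent TGF-beta-binding protein of the matrix, read -3.40 and -3.37 in the controls, -2.10, -1.67 and -3.31 at 1 week and 0.32, 0.61 and 0.23 at 3 weeks, at least 5.09-fold above control (adjusted p = 6e-05) and above 1 week by 2.75 (adjusted p = 0.0014). Among 13 tested markers of fibroblasts, pericytes and myofibroblasts, 5 rose and none fell (3 dark in the controls; 1 to 3 rose with 1 array left out), and their mean level was 0.62 to 0.90 on the treated arrays against -0.26 and -0.11 on the control arrays. Pdgfrb, the pericyte receptor, rose by 2.27. Whether that mean level accounts for the rise in matrix genes was not tested.

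Complement and coagulation genes had 15 of 24 tested members up and none down (5 dark in the controls), with a median of 1.94 (8 up without control replicate 2). C4a read -0.25 and 0.27 in the controls, 2.96, 2.05 and 2.36 at 1 week and 4.41, 4.14 and 3.88 at 3 weeks, a log2 difference from control of 4.14 (SE 0.31, adjusted p = 3.1e-06) and from 1 week of 1.69 (adjusted p = 0.0026). C4b read 0.85 and 0.67, then 3.81, 2.70 and 1.47, then 5.49, 5.33 and 4.67, with differences of 4.4 from control and 2.50 from 1 week (adjusted p = 0.0044). These near-identical C4 paralogs may share probe signal. C2, the protease that pairs with C4, was at least 4.92-fold above control (adjusted p = 1.8e-06), and the C1q chains C1qa and C1qb, made largely by macrophages, rose by 2.10 and 2.37. C3, the central component, read -1.17 and -1.10 against 1.04, 0.58 and 0.54 (1.85, adjusted p = 0.043), with 1 control array above background, and its call was lost when any 1 of the 5 arrays was left out (adjusted p = 0.076 to 0.18).

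Of 22 tested macrophage and monocyte markers, 15 rose and none fell (5 dark in the controls), with a median of 1.72 (7 rose without control replicate 2), and their mean level was 2.26 to 2.58 on the treated arrays against 0.73 and 0.96 on the control arrays. The lysosomal macrophage glycoprotein Cd68 read 0.08 and -0.17 against 2.00, 1.73 and 1.47 (1.78, adjusted p = 0.0053), which fell short once control replicate 2 was left out (adjusted p = 0.067). Mpeg1, the pore-forming perforin-2 of phagocytes, rose by 1.70, with 3 probes between 0.88 and 2.83 and 1 control array above background, and Gpnmb, a glycoprotein of lipid-laden macrophages and injured tubules, was at least 4.34-fold higher. The endothelial and leukocyte adhesion molecule Icam1 was at least 7.17-fold higher and the cytokine signalling inhibitor Socs3 at least 8.73-fold. Of 20 tested chemokines and cytokines, 12 of which were dark in the controls, 6 rose (2 without control replicate 2). The parts of complement and chemokine transcripts that came from macrophages and from tubule cells were not tested.

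Many antigen presentation genes and some interferon response genes also rose. Of 19 tested antigen presentation genes 11 rose and none fell (2 dark in the controls), with a median of 1.11, and of 19 tested interferon response genes 7 rose and none fell (5 dark), with a median of 0.89. The antigen presentation count was 4 without control replicate 1, 5 without control replicate 2 or with array-median scaling, and 6 and 7 when 3-week replicate 2 or 3 was left out, and the interferon count was 3 without control replicate 2. Psmb8, an immunoproteasome subunit, read 2.45 and 1.85 in the controls, 5.50, 5.31 and 4.63 at 1 week and 5.29, 4.92 and 4.84 at 3 weeks (log2 difference from control 2.86, SE 0.32, adjusted p = 0.00011). Psmb9, another such subunit, rose by 2.00, and Tap2, a subunit of the peptide transporter, by 2.88, from -1.13 and -1.04 to 1.98, 1.61 and 1.81. Gbp2, an interferon-induced GTPase, read 0.19 and 0.11 against 2.35, 2.09 and 2.74 (2.25, adjusted p = 0.0006). Xaf1, a proapoptotic interferon-induced protein, was at least 3.08-fold higher, and Nlrc5, the transactivator of MHC class I genes, at least 5.19-fold. The remaining 8 antigen presentation and 12 interferon response genes were not called against control. Among them were Mx1, Oas1a, Irf7, Irf9, Rsad2, Ifi44, Ifi35 and Bst2. No member of either list passed the test between 1 and 3 weeks.

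The promoters of the members of both lists were searched because a part of these genes rose. An interferon-stimulated response element was searched on both strands as GAAA, any 2 bases and GAAA within the 250 bases before the transcription start of the RefSeq table (GRCr8). It was present for 15 of the 31 tested members of both lists that have a promoter in the table (48.4%), and for 8 of the 17 that rose (47.1%). The share was 3.41% of all 33469 promoters, 2.77% of promoters of tested genes, 4.94% for genes called higher and 2.65% for genes called lower. Members that rose and members that did not thus held the element about equally often, and a match is a description of the letters only. Examples follow, with the element in capitals. The promoter of Tap2 lies at chr20:4652297-4652546 on the minus strand with the element 41 bases before the start, that of Gbp2 at chr2:234005477-234005726 on the plus strand with the element, as its reverse complement, 31 bases before it, and that of Xaf1 at chr10:57415685-57415934 on the plus strand with the element 11 bases before it.
Tap2: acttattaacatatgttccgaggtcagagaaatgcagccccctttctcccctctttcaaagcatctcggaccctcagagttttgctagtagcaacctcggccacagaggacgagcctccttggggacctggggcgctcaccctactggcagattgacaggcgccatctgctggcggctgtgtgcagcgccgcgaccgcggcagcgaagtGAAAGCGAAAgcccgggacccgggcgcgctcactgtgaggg
Gbp2: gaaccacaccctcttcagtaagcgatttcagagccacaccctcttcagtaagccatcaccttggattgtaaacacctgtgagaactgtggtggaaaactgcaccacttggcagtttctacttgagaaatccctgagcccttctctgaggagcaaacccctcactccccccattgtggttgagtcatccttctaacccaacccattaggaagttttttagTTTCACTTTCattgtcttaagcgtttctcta
Xaf1: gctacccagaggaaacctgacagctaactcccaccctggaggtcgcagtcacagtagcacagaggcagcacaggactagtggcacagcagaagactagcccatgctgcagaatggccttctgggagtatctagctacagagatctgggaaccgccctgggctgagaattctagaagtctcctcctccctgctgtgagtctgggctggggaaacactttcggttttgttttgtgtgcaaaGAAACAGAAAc

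Of 22 tested genes of iron and heme handling, 4 rose (2 without control replicate 2) and 2 fell, with a median of -0.20. Tfrc, the transferrin receptor whose mRNA is degraded when cells hold iron, read -0.89 and -1.07 in the controls, -1.64, -1.54 and -1.28 at 1 week and -4.22, -3.48 and -2.0 at 3 weeks. It differed from control by -2.25 (SE 0.46, adjusted p = 0.0052), with 1 of 3 treated arrays well above background. The zinc, iron and manganese importer Slc39a8 differed by -3.18, and the ferric reductase Cybrd1 was at least 4.60-fold higher. The ferritin subunits are regulated mainly at translation, and their transcripts did not pass the test: Fth1 differed by -0.66 (adjusted p = 0.13) and Ftl1 by -0.88 (adjusted p = 0.11). Hmox1, heme oxygenase 1, was dim, with no control array and 1 array at 3 weeks above background, and did not pass the limma test against control (adjusted p = 0.55). At 1 week it read -0.63, -0.31 and 0.47, above background on all 3 arrays. Hmox1 was thus above control at 1 week (limma adjusted p = 0.0029), but its log2 difference of 2.35 rests on control values not well above background. Its difference of -1.85 between 3 weeks and 1 week (adjusted p = 0.019) was not called without 1-week replicate 3 or 3-week replicate 1 or 2 (adjusted p = 0.071 to 0.082).

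The metallothionein Mt1 was lower after 3 weeks of iron. Mt1, a cysteine-rich zinc and copper binding protein, read 8.82 and 9.07 in the controls, 8.47, 8.29 and 7.52 at 1 week and 7.34, 6.47 and 6.66 at 3 weeks, a log2 difference of -2.12 (SE 0.40, adjusted p = 0.0033). Mt2A read 9.19 and 9.30 against 8.88, 7.67 and 7.67 (-1.17, adjusted p = 0.087). The promoter of Mt1 is shown because it is dense in metal response elements, the sites of the zinc-sensing factor MTF-1. The core was searched on both strands as TGCACNC or TGCGCNC in the 250 bases before the start. Mt1 held 6 matches, given in capitals at chr19:10832976-10833225 on the minus strand, and 9 of 33469 promoters (0.0269%) held as many or more. At least 1 match was present in 20.6% of all promoters, 29.3% of those of tested genes, 29% for genes called higher and 28.4% for genes called lower.
Mt1: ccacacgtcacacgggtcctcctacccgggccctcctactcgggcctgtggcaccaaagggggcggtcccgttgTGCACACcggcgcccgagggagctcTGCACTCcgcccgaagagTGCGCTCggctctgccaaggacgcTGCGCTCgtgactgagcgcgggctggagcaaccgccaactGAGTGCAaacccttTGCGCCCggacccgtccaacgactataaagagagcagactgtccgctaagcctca

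Genes of the glutathione system moved in both directions, 5 up and 9 down of 28 tested, with a median of -0.25. Leaving out control replicate 1 gave 3 up and 5 down, leaving out control replicate 2 gave 3 and 3, and with 3-week replicate 1 or 3 left out the count up was also 3. With array-median scaling 2 were up and 9 down. Gsta1, a glutathione transferase abundant in proximal tubule and liver, read 6.49 and 6.53 in the controls, 2.21, 1.32 and 0.71 at 1 week and 2.86, 1.53 and 1.71 at 3 weeks (log2 difference from control -4.47, SE 0.62, adjusted p = 0.00039). Gsta5 differed by -2.48. Gpx2, the gastrointestinal glutathione peroxidase and an NRF2 target, rose from 2.10 and 1.58 to 5.36, 5.57 and 5.39 (3.60, SE 0.56, adjusted p = 0.00087), and Gstm1 rose by 2.42 with 1 control array above background. The alpha-class transferases share sequence, so their probes may read more than 1 gene. Glutathione reductase Gsr differed by -1.49 and the NADPH-producing malic enzyme Me1 by -1.73, while the sulfiredoxin Srxn1 rose by 1.59. Of 21 tested NRF2 targets 2 rose and 5 fell, and without either control array 1 rose and 2 fell. The extracellular superoxide dismutase Sod3 read 4.89 and 5.05 against 7.56, 7.13 and 7.04 and rose by 2.27 (adjusted p = 0.0019). Of 20 tested genes of catalase, superoxide dismutases, peroxiredoxins and thioredoxins, 3 rose and 5 fell, with a median of -0.32. The count that fell was 0 without either control array. Gpx4, the lipid hydroperoxide reductase that restrains ferroptosis, differed by -0.28 (adjusted p = 0.66).

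Markers of tissues and cells other than cortical tubule were read on the same arrays. Of 12 tested erythroid and blood genes 7 fell and none rose, which became 0 without control replicate 1 and 2 without 3-week replicate 1, and their mean level was 3.22 on control replicate 1 and 1.42 on control replicate 2, against 0.08, 1.26 and 0.44 on the treated arrays. Hbb-b1, a beta globin, read 8.24 and 5.54 in the controls and 2.91, 4.87 and 3.54 after 3 weeks, and its call (-3.12, adjusted p = 0.010) was lost without control replicate 1 (adjusted p = 0.17). Of 12 hepatocyte markers only Cyp2c11 and F2 were bright enough to test. Cyp2c11 read 0.67 and -3.46 in the controls, with 1 array above background, and was above background on no treated array. Of 12 adrenal markers, 4 were tested and none was called, with a mean level of 1.58 and 0.45 on the control arrays and 1.13 to 1.51 on the treated ones, and Star, Cyp11b1 and Cyp17a1 were too dim to test. Of 8 tested adipose markers 2 rose (0 without control replicate 2), and their mean level was 0.70 to 1.54 on the treated arrays against -0.36 and 0.23; Adipoq differed by 0.98 (adjusted p = 0.10). Among T and NK cell markers 2 of 9 tested rose and among B and plasma cell markers 2 of 8, of which 0 were called without control replicate 2, while 0 of 4 neutrophil and mast cell, 0 of 2 skeletal muscle and 1 of 16 endothelial markers rose. Car3, a carbonic anhydrase of fat, muscle and liver, read 2.61 and 1.86 against 4.59, 3.73 and 4.19 (1.94, adjusted p = 0.029), a call lost without either control array and without 3-week replicate 1 or 3 (adjusted p = 0.063 to 0.24). The part of adipose or blood content in these values was not tested.

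The 3-week arrays were also set against the 1-week arrays, which asks how the cortex differed between the end of the first week and the end of the course. Injections began at 4 weeks of age in both groups, so the 3-week rats were older when sampled. Their last injections held 10 rather than 7 mg iron per kg. Age, dose and duration therefore cannot be told apart in this comparison. Of all genes 889 were higher (5.55%) and 445 lower (2.78%) at 3 weeks, 8.33% in either direction. Of the 354 genes called in both comparisons, 101 were above control and above 1 week, 30 were below both, 66 were above control and below 1 week, and 157 were below control and above 1 week. The last and largest class lies between both groups. It holds Spink1l, a secreted Kazal-type inhibitor, which read 6.14 and 6.66 in the controls, -0.49, -0.25 and -0.33 at 1 week and 3.79, 2.41 and 2.64 at 3 weeks. Spink1l was above 1 week by 3.31 (adjusted p = 0.0016) and differed from control by -3.45 (adjusted p = 0.00052). Slc22a25, another organic anion transporter, and Akr1c1, an aldo-keto reductase, were in the same class, above 1 week by 2.96 and 2.89. The control call of Slc22a25 was lost without control replicate 2 (adjusted p = 0.10) and that of Akr1c1 without either control array or 3-week replicate 1 or 2 (adjusted p = 0.054 to 0.12).

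Genes above control and below 1 week included Havcr1, Vim and Axl. Havcr1 read 4.86, 5.00 and 4.92 at 1 week and was lower at 3 weeks by a log2 difference of -2.65 (adjusted p = 0.002), and Vim by -2.36 (adjusted p = 0.002). H1f5, a linker histone made in dividing cells, differed by -3.25 and the tubulin Tubb6 by -2.39. Axl, a receptor of apoptotic cell clearance, differed by -2.40 and was at least 4.45-fold above control. That call did not pass with normexp and quantile normalization (0.79, adjusted p = 0.14), and a dimmer Axl probe gave 0.80 against 2.84. By contrast Spp1 and Lcn2 did not differ detectably between the treated groups, at 0.14 (adjusted p = 0.86) and -0.82 (adjusted p = 0.35). Among the 29 injury genes, 4 were lower than at 1 week (2 to 7 with 1 array left out). The 1-week count moved with single libraries: without 1-week replicate 1 it was 1389 higher, without 3-week replicate 2 it was 376 higher and 222 lower, without 3-week replicate 3 it was 403 and 249, and without 3-week replicate 1 it was 519 and 276. 1-week replicate 3 correlated with the others of its group at 0.905 and 0.908 against 0.970 between those.

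**Figure D4:**
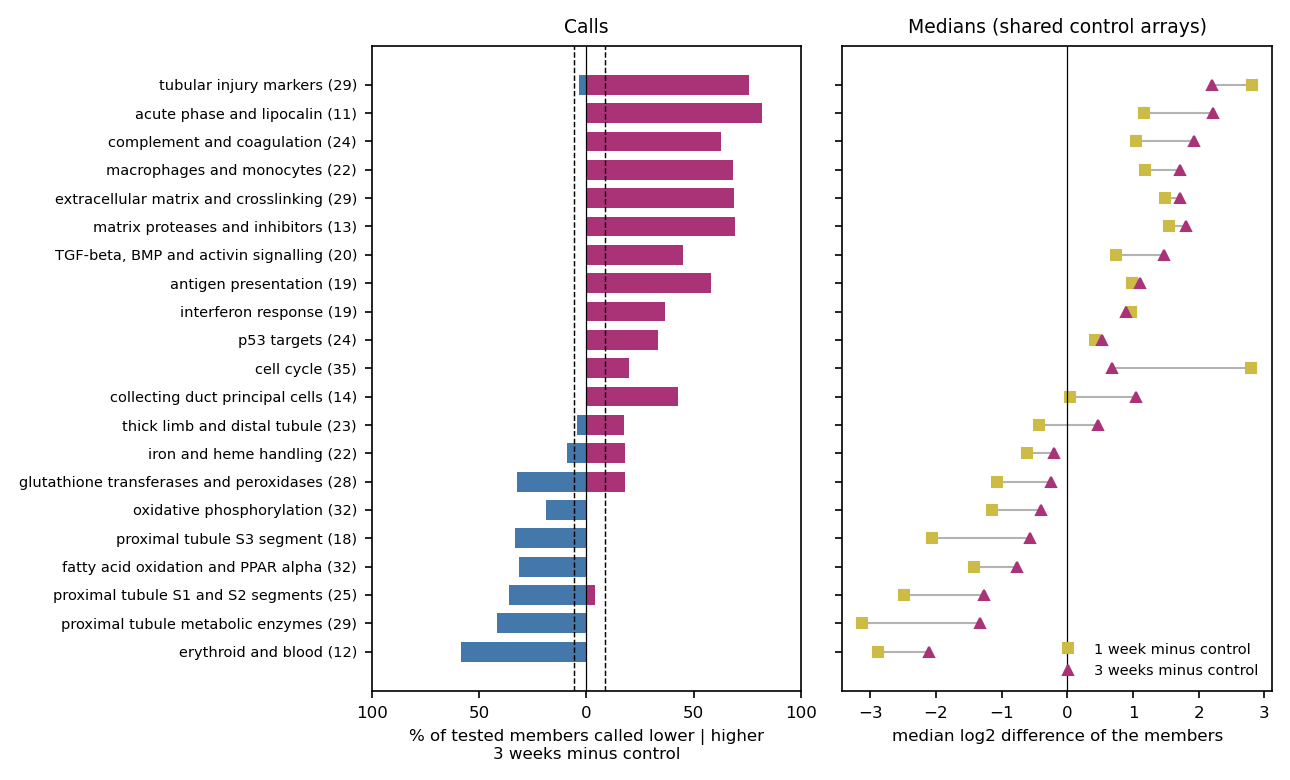
Left, the percent of tested members of 21 gene lists that were higher (right of 0) or lower (left of 0) at 3 weeks than in control, with the number tested beside each name and dashed lines at the shares of all genes (5.53% lower, 8.77% higher); right, the median log2 difference from control of the same lists at 3 weeks and at 1 week, which share the 2 control arrays. Injury, acute phase and complement lists have the highest medians at 3 weeks (2.21, 2.21 and 1.94) and erythroid genes the lowest (-2.11).

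The effect of 3 weeks of Fe-NTA was compared between wild-type and BRCA1+/- cortex by the difference of their log2 changes. No gene passed the limma test at an adjusted p under 0.05 (0% of genes, smallest adjusted p 0.268). Of the 16024 genes, 760 had an unadjusted limma p under 0.05, which is below the share of 0.05 expected where no gene differs. Within slide 1 alone, 1 gene passed.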

How the data were processed

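Total RNA from kidney cortex was extracted with RNeasy Mini, labelled with Cy3 by the Low Input Quick Amp protocol and hybridised to whole rat genome arrays, per the labels' protocols. The scanner files hold processed, mean and local background intensity per spot, written by Agilent Feature Extraction 10.7 per the submitters' processing notes and the file headers. The deposited value table is on the log2 scale with each array's 75th percentile at 0, since it matched the same computation from the scanner files (r = 1 on every array), and its direction needs no choice with 1 colour; genome build and annotation are not given in the sources used here. From the 62976 spots of an array, 4259 controls and all spots with an outlier flag were removed, and no spot was saturated.

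The processed intensity was taken to log2 and the 75th percentile of each array subtracted. Spots of 1 probe were averaged, and the brightest probe stood for a gene; of 45598 probes, 21229 were named through their RefSeq accession (2233 under a changed symbol), 139 through another probe, and 24230 kept the name of the file. Probes well above background on all arrays of at least 1 group (20452) gave 16024 genes. limma 3.58.1 in R 4.3.3 was fitted with 1 mean per group over all 16 arrays in 6 groups, 10 residual degrees of freedom, and p-values were adjusted by Benjamini-Hochberg over all genes. On simulated data for 16024 genes, the 3-week comparison recovered 17% of 100 genes changed by 1 on the log2 scale and 71% of 100 changed by 2, with 4 false calls. The simulation changed only these genes and drew noise independently for each gene, whereas 14.3% of genes were called in the data. These rates therefore need not hold for the real comparison.

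The 55 gene lists, which overlap, were chosen with earlier results of these data known, as was the comparison itself, and their counts are descriptions. Genes were named by rule: the 15 largest rises and falls with groups not overlapping, up to 6 called members of a list in each direction by smallest p, the 10 largest changes in each direction shared with the 1-week comparison, and a fixed panel. Adipoq, Amn, Ccna2, Folr1, Khk, Krt18, Mt2A, Nphs1, Pck1, Pcna, Slc34a1, Slc34a3, Slc5a2 and Tnfrsf12a were named outside it, after their values were seen. Dio1, Nox4, AKR1C3l1, Cenph, Mcm3 and Mcm5 met the rule for changes shared with the 1-week comparison and are not described elsewhere. Their log2 differences from 1 week were, in that order, 3.27, 3.15, 2.83, -2.48, -2.41 and -2.38. Slc7a11 of the panel was too dim to test. Lists with no count in the text are given in no comparison here. Replicate numbers did not pair control and treated arrays (correlations of deviations between -0.045 and 0.045). Slide 1 held control replicate 2 and 3-week replicates 1 and 2, and slide 2 control replicate 1 and 3-week replicate 3. Alternatives covered background correction, scaling, the filter on dim probes, dim values, the arrays fitted, slide, replicate block, probe choice, the deposited table and each array left out. Promoter sequences are from a RefSeq table on GRCr8.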

Additional observations from a re-analysis of the deposited data

How the results depend on the processing

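The counts of called genes depended on the filter, the slides and single arrays. For 3 weeks minus control, with no filter on dim probes (34680 genes) 660 genes were higher and 313 lower, with array-median scaling 716 were higher, with only the 5 arrays compared 1638 were lower, within slide 1 (3 arrays) 204 were higher and 100 lower, and within slide 2 (1 array against 1, the spread taken from groups with more arrays on that slide) 3 were higher and 0 lower. The slides hold fewer arrays, no filter means more genes tested, and the cause of the other shifts was not tested. With 1 array left out, 540 to 1016 were higher and 235 to 552 lower. For 3 weeks minus 1 week the counts were 276 and 196 with no filter, 358 higher with array-median scaling, 268 and 186 with only the 6 arrays compared, 79 and 59 within slide 1 and 0 and 0 within slide 2, and 376 to 1389 higher and 222 to 600 lower with 1 array left out. For the difference between genotypes, 1 gene was called higher within slide 1. With the replicate block the counts were 1401 higher and 750 lower against control and 858 and 431 against 1 week, and with slide as a block 1323 and 829, and normexp background correction with quantile normalization gave 1366 and 1018, of which 912 and 769 were among the 1405 and 886.

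Of 121 called genes named in the text, 103 stayed called against control with each of the 5 arrays left out in turn, and none of these 121 reversed direction under any alternative run. The called gene Hrg l1 is not among the 121 and was not followed through the alternatives. Dim probes limit the precision: 12224 of 45598 probes were well above background on all 16 arrays, and the sizes given as "at least" rest on the detection limit of the dim group. These sizes hold for 1 probe under the main processing. With dim values at that limit the log2 difference was 5.27 for Abcb1b and 5.05 for Fst. The lowest values among the alternative runs were 3.11 and 2.79. The scaling to probes bright on all arrays (1872 higher and 720 lower) was chosen after seeing the data.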

Other observations

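Of the 2291 genes called against control, 1986 were in none of the gene lists, and the genes here were chosen from them after their values were seen. Runx1, a transcription factor of blood formation, was at least 7.97-fold higher after 3 weeks (adjusted p = 5.5e-05 by limma), although a second, dimmer probe of the gene differed by 0.13 on the log2 scale. Capg, an actin filament capping protein, was at least 6.58-fold higher (adjusted p = 1.9e-06), and Uchl1, a ubiquitin hydrolase best known from neurons, at least 5.28-fold higher (adjusted p = 9.7e-05). Cntf, a cytokine of the interleukin-6 family, read -0.71 and -1.12 in the controls and 2.65, 2.80 and 2.21 after 3 weeks, a log2 difference of 3.47 (SE 0.41, adjusted p = 0.00015). All 3 treated arrays lay above both control arrays for these genes.

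Of the genes called in both comparisons, 93 with a gene symbol were above both control and 1 week with arrays that did not overlap, and 13 were below both. With or without a symbol or overlap, 101 were above both and 30 below both. Over all genes tested, 57.1% did not overlap between 3 weeks and control. The 93 and 13 include genes already described, and 3 others follow. Degs2, a sphingolipid desaturase, read 4.21 and 4.07 in the controls, 4.20, 3.76 and 4.37 at 1 week and 5.39, 5.67 and 6.04 at 3 weeks. Its difference from control was 1.56 (SE 0.26, adjusted p = 0.0014) and from 1 week 1.59 (adjusted p = 0.002). Nr0b2, the nuclear receptor SHP, which represses bile acid synthesis in the liver, was above control by 1.87 (SE 0.43, adjusted p = 0.0097) and above 1 week by 2.00 (adjusted p = 0.0054). The call against control was lost without either control array (adjusted p = 0.083 and 0.052). Slc9a4, a sodium-proton exchanger, was at least 3.66-fold above control (adjusted p = 0.00016) and 2.23 above 1 week on the log2 scale (adjusted p = 0.0017). Its dimmer probe differed from control by 1.19 against 2.83.

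Other genes were lower. Slc16a4, a monocarboxylate transporter family member, read 2.82 and 3.28 in the controls, -1.88, -1.84 and -2.29 at 1 week and -0.06, -0.09 and 0.20 at 3 weeks. It was below control by a log2 difference of -3.03 (SE 0.38, adjusted p = 0.0002) and above 1 week by 2.02 (adjusted p = 0.0026). Folh1, which encodes a glutamate carboxypeptidase, had a log2 difference from control of -2.80 (SE 0.51, adjusted p = 0.0026) and from 1 week of 2.59 (adjusted p = 0.0035). For both genes the 3-week arrays lay between those of the other groups, but the Folh1 difference from 1 week did not pass with normexp and quantile normalization (0.49, adjusted p = 0.13).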
